A study of Mus musculus with 11 samples.

Results

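The comparison set the 3 long-term Tet iTKO libraries against the 3 long-term Ctrl libraries, 6 of the 11 libraries of the series, at single genomic bins of about 50 kb and at runs of adjacent bins. These 6 libraries were chosen by their labels, and the comparison covered the 47924 autosomal bins among the 52958 bins deposited. Both groups were mouse embryonic stem cells (mESC) grown in 2i medium on mouse embryonic fibroblast feeders. Both genotypes carried Cre/ERT2, a tamoxifen-activated Cre recombinase driven by the ubiquitin C promoter, and Rosa26-LSL-H2b-Egfp, a green fluorescent reporter that Cre switches on. Tet iTKO cells carried in addition the floxed alleles Tet1,2,3 fl/fl, and Ctrl cells did not. In both genotypes tamoxifen (1 µM for 2.5 days) had been given before monoclonal populations were kept for 30 days, and living GFP+ CD326+ Thy1.2- cells were sorted for DNA. The labels do not say whether the 3 libraries of a genotype came from separate clones, so p-values measure the spread between these libraries. Genotype and the origin of the cell line cannot be told apart in this design. Pre-treatment and acute libraries, 1 of each per genotype, are set beside these below as early libraries. The acute libraries had 1 µM tamoxifen for 2.5 days and were taken 4 days later. The pre-treatment libraries are labelled as not activated, so the Tet iTKO one came from floxed cells before Cre was activated. For that library the name Tet iTKO stands for the genotype alone.

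TET enzymes oxidise 5-methylcytosine and so take part in DNA demethylation. Whole-genome sequencing reads the amount of DNA at each locus and says nothing about expression. A value below is a relative depth, the coverage of a bin divided by the median autosomal bin of the same library, so that 1 is the typical autosomal level. Parts of the mouse genome hold tandem arrays of nearly identical gene copies, and such arrays are known to differ in copy number between mouse strains and lines. A read from sequence that the copies of an array share fits several places, so its depth cannot be assigned to a single copy.

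The sequence of each bin was therefore described first, by sampling words of 50 bases every 250 bases and counting how often each word occurs in the GRCm38 assembly. A word was called multicopy where it occurred more than once. In the median autosomal bin, 5.5% of words were multicopy. The sequences shown next are from 3 of the arrays in which called bins lay, and they show how alike the copies are. The promoters (RefSeq, GRCm38.p6) of Speer4c, on the minus strand at chr5:15714222-15714521, and of Speer4e, on the minus strand at chr5:14938426-14938725, differed at 4 of 300 bases, which stand in capitals.
Speer4c: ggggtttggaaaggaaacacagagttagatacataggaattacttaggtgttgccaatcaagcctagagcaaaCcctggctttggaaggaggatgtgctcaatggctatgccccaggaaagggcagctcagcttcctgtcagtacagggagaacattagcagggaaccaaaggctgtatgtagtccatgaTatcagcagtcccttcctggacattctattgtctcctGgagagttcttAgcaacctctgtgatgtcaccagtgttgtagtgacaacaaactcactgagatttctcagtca
Speer4e: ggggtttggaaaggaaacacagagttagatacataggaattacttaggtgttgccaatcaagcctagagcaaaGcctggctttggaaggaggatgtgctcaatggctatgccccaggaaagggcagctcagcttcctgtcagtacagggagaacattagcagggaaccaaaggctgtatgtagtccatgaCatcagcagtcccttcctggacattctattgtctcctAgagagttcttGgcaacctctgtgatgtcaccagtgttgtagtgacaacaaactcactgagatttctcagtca

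The promoters of Cphx2 (chr14:26082043-26082342, plus strand) and Cphx3 (chr14:26221654-26221953, plus strand) were identical over all 300 bases, and the sequence is given once, with no base marked.
Cphx2: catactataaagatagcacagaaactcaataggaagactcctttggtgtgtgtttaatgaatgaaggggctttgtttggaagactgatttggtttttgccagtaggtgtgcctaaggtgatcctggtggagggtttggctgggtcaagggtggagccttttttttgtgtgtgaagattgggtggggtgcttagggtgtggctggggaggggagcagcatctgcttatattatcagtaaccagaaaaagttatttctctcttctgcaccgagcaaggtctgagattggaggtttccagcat

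A 50-base word from each of 2 arrays on chromosome 14, the one that holds Cphx2 and Cphx3 and one around Entpd4, shows the spacing of the copies, again with no base marked. The first occurred 3 times on the plus strand, at chr14:25902793-25902842, chr14:26042559-26042608 and chr14:26182173-26182222, so that neighbouring copies lay 140 kb apart. The second occurred 2 times on the plus strand, at chr14:69264331-69264380 and chr14:69482581-69482630, which are 218 kb apart.
Cphx and Duxbl array: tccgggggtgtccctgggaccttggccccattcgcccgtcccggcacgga
Entpd4 array: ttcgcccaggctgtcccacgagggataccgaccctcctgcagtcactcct

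Mapped sequence amounted to 555 to 812 megabases in the 6 libraries, and their median autosomal depth lay between 0.215 and 0.315. At 50 bases per read the median bin held 215 to 315 reads, which gives a counting error of 0.081 to 0.098 on the log2 scale in 1 library. The standard deviation between libraries of a group was close to that (median over bins 0.077 in Tet iTKO and 0.075 in Ctrl). The 2 long-term groups also differed outside the autosomes. The median depth of the Y chromosome, over the autosomal median, was 0.463 to 0.470 in long-term Ctrl and 0.549 to 0.558 in long-term Tet iTKO, and 0.027 to 0.038 in the 4 pre-treatment and acute libraries, while the X chromosome lay between 0.560 and 0.572 in all of these. The early and the long-term libraries therefore differed by a chromosome, and time in culture and cell line cannot be told apart between them. Early and late values below are set side by side and are not read as a time course of the same cells.

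Of 47924 bins, 71 differed between the 2 long-term genotypes at an adjusted p under 0.05 (limma with Benjamini-Hochberg adjustment over all bins, two-sided), which was 0.148% of the bins. Depth was higher in Tet iTKO in 21 bins (0.0438%) and lower in 50 (0.104%). The called differences ranged in size from 0.27 to 1.81 on the log2 scale, with a median of 0.46. They lay on 14 of the autosomes and covered 0.148% of the autosomal sequence in bins. An unadjusted p under 0.05 was found in 2932 bins, or 6.12%. The groups did not overlap in 69 of the 71 called bins (11.3% of all bins), a description only, since the call used the same libraries.

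**Figure D1:**
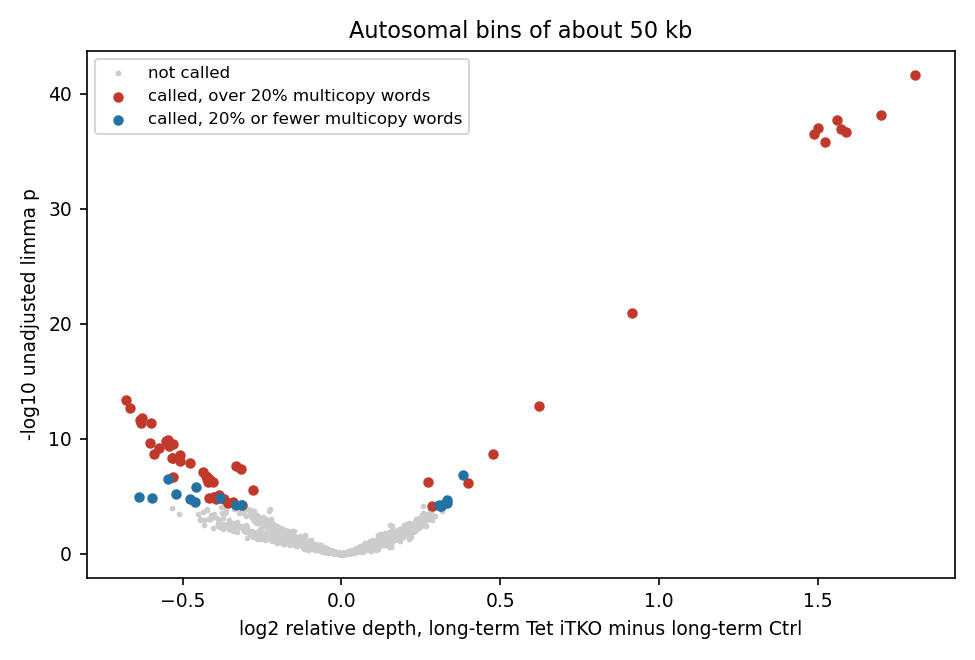
Each point is 1 of 47924 autosomal bins, with the log2 difference in relative depth, long-term Tet iTKO minus Ctrl (n = 3 each) on the x axis and the -log10 unadjusted limma p on the y axis. Red and blue points are the 71 called bins, of which 54 had over 20% multicopy words (red) and 17 had 20% or fewer (blue), and the 8 points beyond a difference of 1 are all red.

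Called bins lay mostly in sequence that occurs more than once. Multicopy words made up over 20% of the sampled words in 54 of the 71 called bins (76.1%) and in 6188 of all bins (12.9%). The median share was 71.6% in called bins and 5.50% in all bins. In bins with up to 2% multicopy words, 2 of 9806 were called (0.0204%). Among bins with 50 to 90% the number was 24 of 780 (3.08%), and among those above 90% it was 20 of 420 (4.76%), all 20 of them lower in Tet iTKO. Most of these 20 lay in the Cphx and Duxbl array and the Entpd4 array on chromosome 14. Bins of the same array share copies, so they are not independent observations of a direction. GC content did not set the called bins apart in the same way, with a median of 41.1% against 41.4% over all bins. When bins with over 20% multicopy words were left out and the fit was repeated on the other 41736 bins, 1 bin was called in place of 17. Each bin is fitted on its own, so the differences of these 17 bins could not change. Only the variance trend and the adjustment depended on the bins kept. The adjusted p values (limma) of the 17 bins rose to between 0.012 and 0.17.

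Adjacent called bins of the same direction formed 13 runs of 2 to 8 bins, 3 higher and 10 lower in Tet iTKO, which held 45 of the 71 called bins. The remaining 26 called bins stood alone, 9 higher and 17 lower. In 12 of the 13 runs at least 42.0% of words were multicopy. Between 58.3 and 98.5% of those multicopy words had every copy within 1 Mb of the run. The shares were 58.9 and 61.6% in the 2 Speer runs, where 66.3 and 67.3% had every copy on chromosome 5. Part of the multicopy sequence was therefore not local. Since a run was picked by its bins, the mean differences of runs are descriptions. In 6 runs (both Speer runs, the Cphx and Duxbl run and 3 on chromosome 13) every bin was called in each of the 6 fits that left out a library. In the first Entpd4 run the least stable bin was called in 3 of these fits, in the second Entpd4 run and the chromosome 19 run in 2, and in both chromosome 6 runs, the chromosome 13 run from 66104468 and the Hdac9 run in 1.

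**Figure D2:**
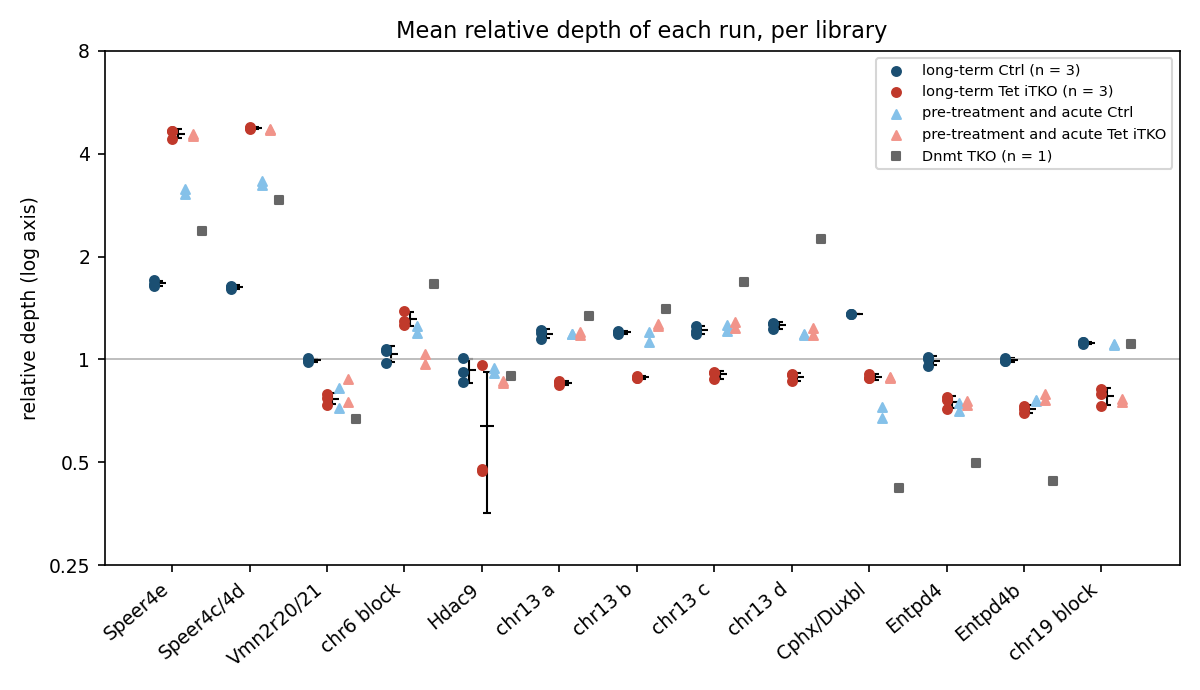
Mean relative depth of each of the 13 runs in each library, on a log axis. Filled circles are the long-term libraries (n = 3 per genotype, with mean and SD as black bars), triangles are the 2 pre-treatment and acute libraries of each genotype and squares the Dnmt TKO library. The 2 Speer runs stand highest at 4.42 to 4.78 in long-term Tet iTKO, and the long-term groups overlap only at Hdac9.

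The 2 largest differences lay on chromosome 5, in an array of Speer genes, which encode glutamate-rich proteins known from spermatogenesis. The first run (chr5:14862456-15062666, 4 bins) overlapped Speer4e, Gm10354, Gm9758, Gm17019 and an end of Pclo, the gene of a presynaptic scaffold protein. Its mean relative depth was 4.65, 4.65 and 4.42 in the long-term Tet iTKO libraries and 1.64, 1.70 and 1.67 in the long-term Ctrl libraries. Every Tet iTKO library was far above every Ctrl library, with a log2 difference of 1.38 ± 0.028 (SE over libraries, n = 3 each), or 2.60-fold.

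The second Speer run (chr5:15457667-15757302, 6 bins) overlapped Gm21149, Speer4d, 4930572O03Rik, Speer4c, Gm21190 and Gm21083. Relative depth there was 4.78, 4.73 and 4.76 in Tet iTKO and 1.64, 1.60 and 1.63 in Ctrl. The difference was 1.46 ± 0.0094 (SE, n = 3 each), or 2.75-fold, and the libraries of a genotype were almost alike. The 395 kb between the 2 runs held no bin of the comparison. The 3 bins on either side of the array had differences between -0.085 and 0.10, with limma adjusted p values of 0.90 or more. Of the 10 Speer genes in tested bins, 3 (Speer4c, Speer4d and Speer4e) overlapped a called bin, all higher, against 20 of all 20780 protein-coding genes (0.0962%). These 3 genes lie in the same array, so they are not separate observations. In the pre-treatment and acute libraries, which took no part in the call, the second run stood at 4.71 and 4.68 in Tet iTKO and at 3.24 and 3.33 in Ctrl. Tet iTKO depth was thus about the same early and late, and Ctrl depth was lower in the long-term libraries. The Dnmt TKO library, from cells without Dnmt1, Dnmt3a and Dnmt3b, stood at 2.92.

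**Figure D3:**
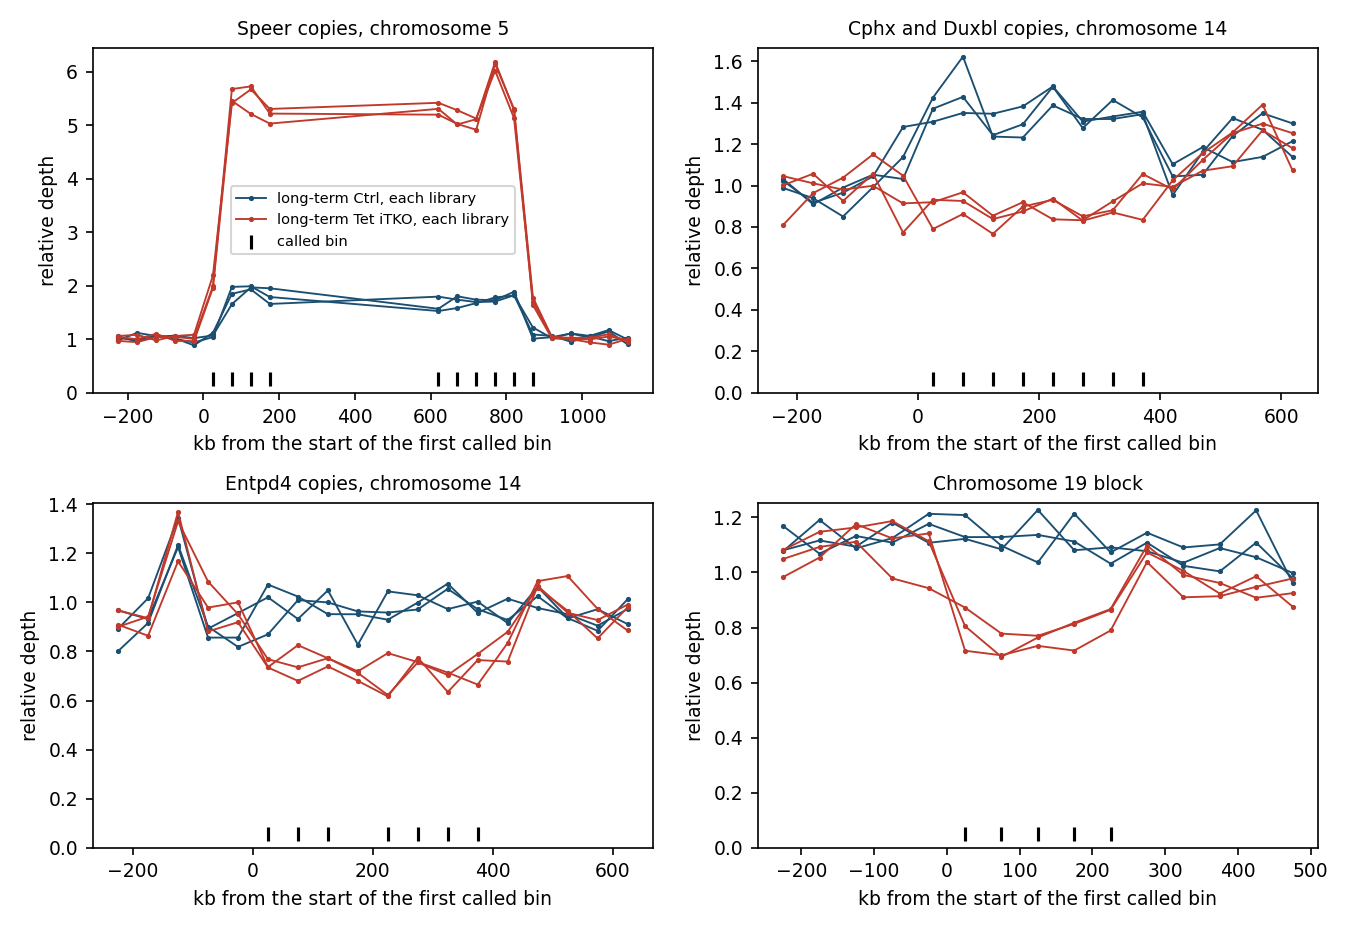
Relative depth (y axis, from 0) of each long-term library in successive bins across 4 arrays or blocks, by distance in kb from the start of the first called bin. Blue lines are the 3 Ctrl libraries, red lines the 3 Tet iTKO libraries and black marks the called bins. In the Speer array the red lines reach 4.9 to 6.2 in the inner bins and the blue lines stay below 2, and all lines return to about 1 outside.

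The longest run (chr14:25902793-26298546, 8 bins) was lower in Tet iTKO and overlapped 12 protein-coding genes. Those with the largest overlap were Cphx3, Cphx1, Gm9780, Plac9b, Cphx2 and Duxbl1. Cphx and Duxbl genes encode homeodomain proteins, and Duxbl belongs to the double-homeobox family known from early embryos. Of the 50-base words in this run, 89.1% occurred in 3 copies nearby, as did the word shown above. Relative depth was 0.880, 0.880 and 0.908 in Tet iTKO and 1.36, 1.36 and 1.35 in Ctrl. All Tet iTKO libraries were below 1 and all Ctrl libraries above it, with a difference of -0.61 ± 0.015 (SE, n = 3 each). All 3 Duxbl genes in tested bins overlapped a lower bin, against 0.192% of all protein-coding genes, with a median difference of -0.67 (median over all protein-coding genes 0.012). These 3 genes are copies within this run, so they are not separate observations. The pre-treatment and acute libraries stood at 0.882 and 0.888 in Tet iTKO and at 0.673 and 0.727 in Ctrl, so that the order of the genotypes there was the opposite. The depth of Tet iTKO was again about the same early and late. The Dnmt TKO library stood at 0.421.

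On the same chromosome, 2 runs separated by 1 uncalled bin lay in an array of 2 copies around Entpd4, which encodes a nucleoside diphosphatase. The first (chr14:69264331-69414297, 3 bins) overlapped Gm16867, Entpd4, Slc25a37 (the iron carrier mitoferrin) and Synb (a fusion protein of the placenta). The second (chr14:69464287-69664243, 4 bins) overlapped Loxl2 (a lysyl oxidase), Gm16867, Entpd4b and Gm27179. In the second, relative depth was 0.698, 0.732 and 0.718 in Tet iTKO and 0.990, 0.989 and 1.01 in Ctrl, a difference of -0.48 ± 0.024 (SE, n = 3 each). In the first it was 0.718, 0.759 and 0.778 against 1.02, 0.959 and 1.00. The groups did not overlap in either run. Words in 2 nearby copies made up 97.8% of the first run and 97.2% of the second. In the first run the early libraries of both genotypes stood between 0.708 and 0.753, near long-term Tet iTKO. The Dnmt TKO library stood at 0.497 in the first run and at 0.440 in the second.

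On chromosome 13, positions 65654585 to 66504363 held 4 runs and 1 single called bin, all lower in Tet iTKO. Across the runs, Tet iTKO libraries stood between 0.843 and 0.921 and Ctrl libraries between 1.15 and 1.28. The mean differences of the runs were -0.47, -0.43, -0.42 and -0.49. The protein-coding genes in them were Gm10324 and 2410141K09Rik. Here the early Tet iTKO libraries, at 1.18 to 1.28, stood with both Ctrl groups, and it was the long-term Tet iTKO libraries that were lower. The Dnmt TKO library was higher than these, at 1.34 to 2.24 across the runs. Elsewhere on chromosome 13, a deep bin at Ccl28 and Tmem267 (from 119595506) was higher, at 8.24, 8.07 and 8.49 in Tet iTKO against 6.65, 6.88 and 6.98 in Ctrl. It lies outside the rule for naming and was chosen after its values were seen (difference 0.27, limma adjusted p = 6.15e-04).

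A run of 5 bins on chromosome 19 (chr19:9164390-9414471) held no protein-coding gene. Relative depth was 0.820, 0.789 and 0.731 in Tet iTKO and 1.12, 1.13 and 1.11 in Ctrl, a difference of -0.52 ± 0.048 (SE, n = 3 each). The early libraries showed the same separation, at 0.767 and 0.749 in Tet iTKO and 1.10 and 1.11 in Ctrl. The Dnmt TKO library, at 1.11, stood with Ctrl. The chromosome 19 run is the only run lower in Tet iTKO, apart from Hdac9, in which both early Tet iTKO libraries lay below both early Ctrl libraries.

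Chromosome 6 held differences in both directions. The genes Vmn2r20 and Vmn2r21, of a family of pheromone receptors, were overlapped by a run (chr6:123417176-123517148) at 0.769, 0.737 and 0.794 in Tet iTKO and 0.982, 0.993 and 1.01 in Ctrl, a difference of -0.37 ± 0.032 (SE, n = 3 each). They were 2 of 328 vomeronasal receptor genes in tested bins with a lower bin, against 40 of all 20780 protein-coding genes (0.192%). In contrast a run without protein-coding genes (chr6:130915208-131015180) was higher in Tet iTKO, at 1.27, 1.30 and 1.39 against 0.976, 1.06 and 1.08, a difference of 0.34 ± 0.058 (SE, n = 3 each). The single bin from 130815234, 1 uncalled bin before this run, was also higher, by 0.48 (SE of the limma fit 0.067, adjusted p = 4.41e-06). Of 26 killer cell lectin-like receptor genes, which act on natural killer cells, 4 (Klra1, Klra3, Klri1 and Klri2) overlapped a lower bin and none a higher bin, against 0.192% and 0.0962% of all protein-coding genes. Klri1 and Klri2 shared the bin from 129715522, and Klra1 and Klra3 shared the bin from 130315365. These bins were called in 2 and 4 of the 6 fits that left out a library (limma adjusted p = 0.013 for each in the main fit).

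The run at Hdac9, a class IIa histone deacetylase gene, was the one run whose groups overlapped, and it was singled out after its values were seen. Relative depth (chr12:34263943-34363986, 2 bins) was 0.471, 0.964 and 0.477 in Tet iTKO and 0.921, 0.857 and 1.01 in Ctrl. Replicates 1 and 3 of Tet iTKO were at about 0.47 and replicate 2 was at the Ctrl level. Over all bins, too, replicates 1 and 3 were the closest pair of Tet iTKO libraries (chi-square over degrees of freedom 1.02, against 1.15 and 1.14 for the pairs with replicate 2). They were counted as 2 libraries, as the labels list them. Here 4.25% of words were multicopy, so this run differed from the other 12 in its sequence.

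Among the called bins outside runs, the 5 largest differences in each direction were examined. The bin from 103714544 on chromosome 15, which holds Mucl1 (a mucin-like gene), was higher in Tet iTKO, at 1.47, 1.69 and 1.67 against 1.31, 1.23 and 1.15 in Ctrl. The difference was 0.38 (limma SE 0.064, adjusted p = 1.91e-04), and this was the 1 bin still called after multicopy bins were left out. The others higher in Tet iTKO were the bin near the chromosome 6 run given above, a bin at Fat1 (an atypical cadherin; difference 0.33), a bin at 4930562C15Rik and Ubald1 (0.33), and a bin without protein-coding genes on chromosome 4 (0.32). The last 3 were called at limma adjusted p values of 0.018, 0.031 and 0.039, and each was called in 2 of the 6 fits that left out a library.

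Of the lower bins, that at Adamts18 (chr8:113748890-113798896), a gene of a secreted metalloprotease, had 4.00% multicopy words. Its relative depth was 0.593, 0.566 and 0.669 in Tet iTKO and 0.846, 0.911 and 0.920 in Ctrl, a difference of -0.55 (limma SE 0.095, adjusted p = 4.18e-04). It was called whichever library was left out, but not after multicopy bins were left out. The early libraries stood at 0.728 and 0.713 in Tet iTKO and 0.920 and 0.865 in Ctrl. A bin at Gm15446 (chr5:109925011-109974967) stood at 0.801, 0.856 and 0.936 in Tet iTKO and 1.21, 1.27 and 1.30 in Ctrl, a difference of -0.54 (limma SE 0.072, adjusted p = 9.26e-07). The last 3 were on chromosome 1, 1 of them at B3gat2 and Smap1, with differences of -0.48, -0.46 and -0.52. In all of these Tet iTKO replicate 2 stood lowest, between 0.541 and 0.562, and without that library the differences were -0.22, -0.21 and -0.25 and none was called.

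**Figure D4:**
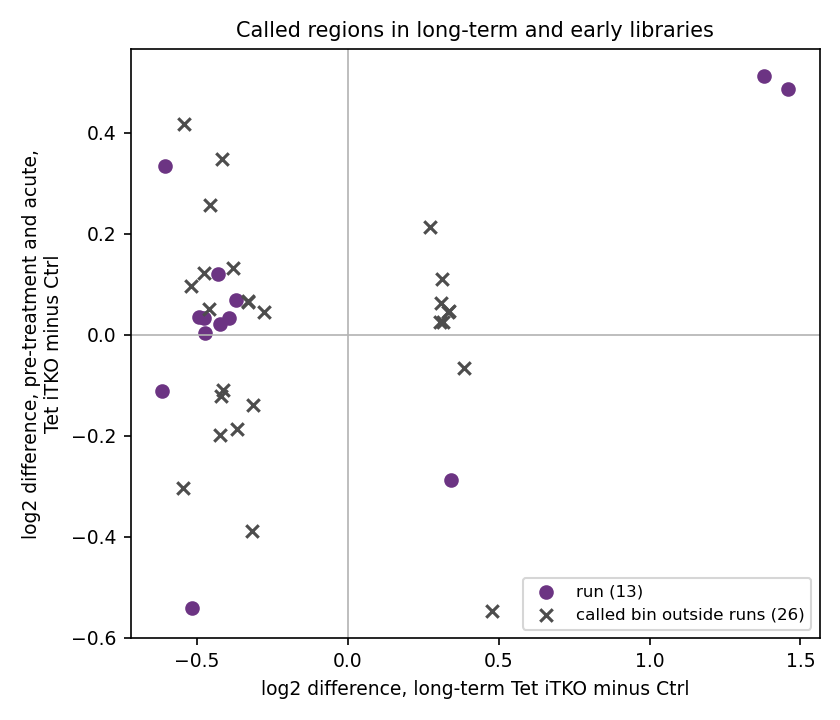
Log2 difference between Tet iTKO and Ctrl in the long-term libraries (x axis, n = 3 each) and in the pre-treatment and acute libraries (y axis, 2 libraries per genotype) for the 13 runs (circles) and the 26 called bins outside runs (crosses). The 2 Speer runs lie at the upper right (1.38 and 1.46 against 0.51 and 0.49) and the Cphx and Duxbl run at the upper left (-0.61 against 0.33).

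The early libraries showed the direction of the long-term difference in some called bins only. Of the 21 bins higher in long-term Tet iTKO, both early Tet iTKO libraries lay above both early Ctrl libraries in 12 and below them in 3. In the other 6 the early libraries overlapped. The 12 were every bin of the 2 Speer runs (4 and 6 bins), the bin at Ccl28 and Tmem267 and a chromosome 16 bin from 19175152. Of the 50 lower bins, the early libraries lay in the same order in 14, in the opposite order in 20 and overlapped in 16. All 5 bins of the chromosome 19 run were among the 14, and all 8 bins of the Cphx and Duxbl run among the 20. Over all autosomal bins, the early Tet iTKO libraries lay above the early Ctrl libraries in 16.8% and below in 16.7%. Adjacent bins share an array, so these bins are not independent of each other.

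Windows of 3 adjacent bins, about 150 kb, were compared to look for smaller differences. Of 47677 windows 95 were called (0.199%; limma with Benjamini-Hochberg adjustment), 20 higher and 75 lower. Merged where they overlapped or touched, they formed 25 stretches, 8 higher and 17 lower, of which 5 held no called single bin. The longest was the chromosome 13 stretch of 21 bins (difference -0.33).

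The genes targeted by the design showed no called bin. At Tet1 (chromosome 10, 62804570 to 62908996, minus strand, 4 bins) the difference was -0.044, at Tet2 (chromosome 3, 2 bins) 0.032 and at Tet3 (chromosome 6, 3 bins) 0.070. Single bins ranged from -0.25 to 0.054 at Tet1 and from -0.14 to 0.20 at Tet2. Their smallest limma adjusted p values were 0.28 and 0.67. The deleted exons are smaller than a bin, so these values need not show the deletion, which was not tested here. Dnmt1, Dnmt3a and Dnmt3b differed by 0.0017, 0.026 and 0.029. Among genes of the subcortical maternal complex, an oocyte and embryo complex that includes Khdc3, the differences were -0.031 for Khdc3, -0.015 for Ooep, 0.13 for Nlrp5, -0.011 for Tle6, -0.014 for Nlrp4f and -0.11 for Padi6. The exact two-sided permutation test cannot go below p = 0.1 with 3 libraries against 3, and Tet3, Nlrp5 and Padi6 reached that value, so no gene could pass the threshold. None of 22 pluripotency genes, 28 chromosome segregation and spindle checkpoint genes and 25 growth control genes overlapped a called bin, with median differences of 0.017, 0.038 and 0.0068. A called bin was found at 60 of all 20780 protein-coding genes (0.289%), so lists of this size would hold about none at that share.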

How the data were processed

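Low-coverage sequencing of genomic DNA was analysed in 11 libraries grouped by their labels. The authors mapped trimmed single-end reads to mm10 using BWA-mem, and duplicates were removed with Picard. The deposited signal is the mean coverage (depth) of each bin of about 50 kb, without correction for GC or mappability. A deposited log2 column was not used. Bin ends were checked against GRCm38 chromosome lengths, and genes came from GENCODE M21.

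Depth of autosomal bins was divided by the median autosomal bin of the library. Bins with a mean relative depth of at least 0.25 over the 6 libraries were tested, which all 47924 passed. limma 3.58.1 (R 4.3.3; variance trend, two-sided) was applied to log2(relative depth + 0.01), with Benjamini-Hochberg adjustment. Differences are on that scale. A run was 2 or more adjacent called bins of one direction. Targeted genes were tested by exact permutation. Named were up to 10 higher and up to 10 lower runs (12 in all qualified), and the 5 higher and 5 lower called bins outside runs, of largest difference and with groups that did not overlap, with up to 6 protein-coding genes each, and the genes of the methylation and subcortical maternal complex lists. Members and lists were chosen with earlier results of these data known. Read numbers are base sums divided by 50, since 95.4% of 3432 low bin values were multiples of 50. The study's methods state a longer minimum read length, so read numbers are estimates, and counting errors cover counting alone. Groups of 1 library were described without a test. Libraries were counted separately, as the labels list them. The chi-square of read numbers over its degrees of freedom was 1.02 to 1.15 between libraries of a group and depends on the read length assumed. Data simulated for the long-term comparison (47924 bins) held counting noise alone, at 50 bases per read. In them, 27 of 100 bins changed by a log2 value of 0.25 and 99 of 100 changed by 0.5 were called. None had the wrong sign, and 6 unchanged bins were called. Alternatives covered scaling, GC correction (lowess, span 0.3, 3 iterations), filters, pseudocounts, variance models, the libraries fitted, a replicate block and leaving out each library. Python 3.11.15, numpy, pandas and matplotlib were used.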

Additional observations from a re-analysis of the deposited data

Results flagged for a closer look

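In 13 called regions the early libraries of one genotype both lay on the opposite side of the other from the long-term libraries. The difference between early and long-term was not tested, and early libraries lie apart in a given direction in 16.7 to 16.8% of all bins. The early log2 differences (Tet iTKO minus Ctrl) were as follows. Of the regions higher in long-term Tet iTKO, the chromosome 6 run from 130915208 stood at -0.29 and the bin from 130815234 at -0.55. Of the lower runs, the chromosome 13 run from 66104468 stood at 0.12, the Cphx and Duxbl run at 0.33 and the second Entpd4 run at 0.033. Of the lower bins, that at Gm15446 stood at 0.42, that at Klri1 and Klri2 at 0.13, that at Klra1 and Klra3 at 0.35, the chromosome 6 bin from 130415339 at 0.26 and a chromosome 8 bin from 71142997 at 0.044. The 3 chromosome 1 bins stood at 0.12, 0.052 and 0.097. Some of these bins fall outside the rule for naming and were chosen by this comparison.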

How the results depend on the processing

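Leaving out bins with over 20% multicopy words left 1 called bin, 0 runs and 2 windows. The differences of the 17 called bins with fewer such words could not change in that fit. Their limma adjusted p values lay between 0.012 and 0.17. Requiring 3 or more bins left 7 runs. Leaving out each library in turn gave 47 to 129 called bins, 7 to 20 runs and 75 to 107 windows. The lowest numbers of bins and runs were without Ctrl replicate 1 (47 and 7), and the highest without Tet iTKO replicate 3 (129 and 20), and 8 runs were left without Ctrl replicate 2. The cause was not tested. Of the 71 bins, 43 were called in all 6 of these fits. The higher bins were 13.2% of calls with relative depth limited to 0.5 to 1.5 (53 bins, 7 higher) against 21 of 71 otherwise. With a replicate block, 94 bins were called, all 71 among them. The numbers share only a number: deviations of same-numbered libraries correlated at 0.0010, -0.0051 and 0.0019. No other alternative moved the number of bins, runs or windows by over 1.5 times. No direction of the 22 named regions was reversed in 380 values under alternatives. This was largely fixed in advance, so it is no separate support. Named regions had groups that did not overlap, and several alternatives leave the difference of a bin unchanged. At targeted genes, where nothing was called, signs changed. With the bin of largest overlap the values were 0.019 (Tet1), -0.14 (Tet2), -0.050 (Dnmt1), -0.020 (Dnmt3a), -0.017 (Dnmt3b) and 0.038 (Nlrp4f), and with GC correction -0.019 (Dnmt1). Leaving out libraries gave -0.024 to 0.093 (Tet2), -0.045 to 0.065 (Dnmt1), -0.10 to 0.013 (Khdc3), -0.036 to 0.011 (Ooep), -0.062 to 0.027 (Tle6) and -0.039 to 0.025 (Nlrp4f). At the depth of these libraries, 27% of simulated bins changed by a log2 value of 0.25 and 99% of those changed by 0.5 were called. The simulation held counting noise alone, without other variation between libraries, so these shares need not hold for the real libraries.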
